A study of Homo sapiens with 8 samples.

Results

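Homologous recombination, Fanconi and mismatch repair genes were followed across 8 Affymetrix arrays of NB4, a cell line from human acute promyelocytic leukaemia. The members were 32 genes of known repair role, chosen with earlier results of these data known. They covered BRCA1 and its partners, cofactors of DNA strand exchange, and the Fanconi core and ID complexes. The others were resection and dissolution enzymes, mismatch repair factors, and the sensors and kinases of broken or stalled DNA. Each gene was taken from its brightest probe set, among those that the array annotation gives to exactly 1 gene. Of the 32 genes, 28 had a value, out of 18132 genes on the array, and 24 of these were bright enough to be tested, out of 12845 tested genes. BRCA2, FANCA, FANCD2 and RBBP8 are not analysed here, because the annotation used gave them no probe set of their own. BRIP1, FANCB, FANCM and PMS2 had means of 3.92, 4.98, 5.62 and 3.87 log2, below the limit of 5.83 log2 that was set for testing.

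The NB4 cells received a lentivirus (multiplicity of infection 10) that carried 1 of 3 hairpins against CDK2 (shCDK2 #10, #3 and #1) or a scrambled control, and RNA was taken at day 5 or day 2. The submitters call day 5 a late and day 2 an early differentiation stage. There was 1 array per construct and day, so there were 3 shCDK2 arrays and 1 scramble array at day 5 and the same at day 2. All 8 groups of cells carried a lentivirus, and untransduced cells are not analysed here. The labels do not say whether the arrays came from separate cultures, so each p-value measures only the spread between these arrays, and the number of arrays limits the precision. All levels below are log2 signals as the authors deposited them, and differences are differences of log2 signals. The design allows a comparison of the hairpins with scramble at each day, of each hairpin with scramble over both days, of #10 with #1, and of day 5 with day 2.

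Homologous recombination copies an intact sister DNA to mend a double-strand break: MRE11, RAD50 and NBN sense and open the ends, EXO1 and BLM extend the resection, and BRCA1, PALB2 and further cofactors guide strand exchange. The Fanconi core complex places ubiquitin on the FANCI and FANCD2 pair so that crosslinked DNA can be unhooked, and MSH6 forms part of the heterodimer that reads mismatches behind the replication fork. Many of these genes are transcribed mainly in S and G2 phase, in part through E2F and cell-cycle promoter elements.

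The promoters of the following 5 members are shown for the values of their brightest probe sets. FANCC, RAD51D and XRCC3 lay below the scramble array of the day in all 6 hairpin arrays. RAD51AP1 had the lowest day 2 difference and ATM the highest. Each line holds the 250 bases before the RefSeq start site in GRCh38.p14, read 5′ to 3′ on the gene's strand: chr9:95317710-95317959 on the minus strand for FANCC, chr17:35119759-35120008 on the minus strand for RAD51D, chr14:103715452-103715701 on the minus strand for XRCC3, chr12:4538640-4538889 on the plus strand for RAD51AP1 and chr11:108222817-108223066 on the plus strand for ATM. Capitals mark matches to the E2F words TTTCCCGC, TTTGGCGC, TTTCGCGC and TTTGCCGC or to the cell-cycle homology region words TTTGAA and TTCGAA, searched on both strands.
FANCC: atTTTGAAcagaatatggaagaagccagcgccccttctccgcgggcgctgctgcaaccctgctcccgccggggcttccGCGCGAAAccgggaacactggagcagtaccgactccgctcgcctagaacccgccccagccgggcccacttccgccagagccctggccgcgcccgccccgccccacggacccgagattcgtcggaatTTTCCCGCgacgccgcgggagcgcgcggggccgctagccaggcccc
RAD51D: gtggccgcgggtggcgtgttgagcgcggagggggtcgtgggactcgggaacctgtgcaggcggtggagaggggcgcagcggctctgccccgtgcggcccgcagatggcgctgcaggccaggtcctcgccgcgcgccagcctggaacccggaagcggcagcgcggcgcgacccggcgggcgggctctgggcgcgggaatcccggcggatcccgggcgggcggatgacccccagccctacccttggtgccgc
XRCC3: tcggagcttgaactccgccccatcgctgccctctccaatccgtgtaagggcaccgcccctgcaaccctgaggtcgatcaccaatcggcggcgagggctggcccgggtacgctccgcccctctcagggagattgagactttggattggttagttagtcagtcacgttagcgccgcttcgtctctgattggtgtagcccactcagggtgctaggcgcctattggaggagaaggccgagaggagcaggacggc
RAD51AP1: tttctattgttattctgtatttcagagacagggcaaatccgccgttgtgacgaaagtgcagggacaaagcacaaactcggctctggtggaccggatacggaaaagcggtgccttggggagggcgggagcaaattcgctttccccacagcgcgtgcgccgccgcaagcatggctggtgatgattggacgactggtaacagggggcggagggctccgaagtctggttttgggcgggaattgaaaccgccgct
ATM: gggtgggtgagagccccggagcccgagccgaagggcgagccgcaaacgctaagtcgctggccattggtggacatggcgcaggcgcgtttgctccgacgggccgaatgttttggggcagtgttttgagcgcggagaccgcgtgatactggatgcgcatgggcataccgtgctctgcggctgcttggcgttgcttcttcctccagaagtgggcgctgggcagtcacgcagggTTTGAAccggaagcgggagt
FANCC, ATM and RAD51D have 2 start sites each in the table; the one with more matches is shown for FANCC and ATM, and the one listed earlier for RAD51D, where neither held a match. In FANCC an E2F word lay on the minus strand at -172 to -165 and another on the plus strand at -46 to -39 from the start site, and TTTGAA lay at -248 to -243. In ATM, TTTGAA lay at -20 to -15, and RAD51D, XRCC3 and RAD51AP1 held none of these words in the window. RefSeq lists 36 promoters for 25 of the 28 measured members. Of these, 3 held an E2F word (8.33%, of FANCC and PMS2), against 2.79% of all 35116 promoters of the same length. They came from 2 genes, as the same TTTGCCGC word of PMS2 was counted from 2 overlapping windows, at -43 to -36 and -100 to -93. PMS2 was too dim to be tested. A cell-cycle homology region word was found in 3 of the 36 (8.33%, of ATM, BRIP1 and FANCC), against 14.3% of all promoters. These matches describe letters and were not tested as binding sites.

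CDK2, the target, set a limit on every comparison with scramble. At day 5 its signal was 8.08 in #10, 7.72 in #3 and 7.89 in #1, against 8.19 in the scramble-labelled array. At day 2 it was 7.54 in #10, 9.03 in the array labelled #3 and 7.78 in #1, against 9.10 in scramble. The array labelled #3 at day 2 thus stood at 95.03% of scramble, and the array labelled scramble at day 5 at 53.2% of scramble at day 2. CDK2 was not called in the limma comparison of #10 with scramble (-0.83, adjusted p = 0.321). The fitted CDK2 difference was -0.81 in #1 and -0.27 in #3, and #10 differed from #1 by -0.02 (limma adjusted p = 0.984). The knockdown difference of CDK2 was -0.29 at day 5 and -0.99 at day 2, and none of these passed. Array medians lay between 6.30 and 6.43 log2, and the correlation of array pairs over all probe sets ran from 0.9639 to 0.9943. The promyelocyte granule gene MPO was between 13.4 and 14.4 log2 in every array, while ELANE, a granule protease gene, lay between 5.83 and 6.35 log2.

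The 24 tested members spanned a wide range of signal in these cells. MSH6 was the brightest at a mean of 10.30 log2 over the 8 arrays, followed by RAD51C at 9.65, TOPBP1 at 9.60 and FANCI at 9.43, and RAD54B was the dimmest at 6.32. Probe sets differ in brightness for the same RNA, so this order does not rank transcripts. No member passed the threshold of adjusted p under 0.05 in any of the 8 limma comparisons, adjusted by the Benjamini-Hochberg method over all 12845 tested genes. The share of all tested genes called was 2.01% for #10 against scramble (217 higher and 41 lower), 0.0311% for #3 against scramble and 0.327% for #10 against #1. It was 0.0% for the other 5 comparisons: #1 against scramble, the knockdown at day 5, the knockdown at day 2, their difference, and day 5 against day 2 in the shCDK2 arrays. At an unadjusted p under 0.05, 3 members passed for #10 (20.2% of all genes), 2 for #3 (9.47%), 0 for #1 (1.33%) and 4 for #10 against #1 (15.8%). The same counts were 0 for the knockdown at day 5 (1.33% of all genes), 1 for the knockdown at day 2 (3.44%), 0 for their difference (1.28%) and 0 for day 5 against day 2 (2.02%). The members' 95% confidence intervals, which are not adjusted, reached a median of 0.48 log2 to either side for a hairpin and 0.63 log2 for the knockdown at a day. A difference within such an interval's reach could not be told from 0 even before adjustment. Larger ones were not called either, such as 1.10 for ATM in #10.

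**Figure D1:**
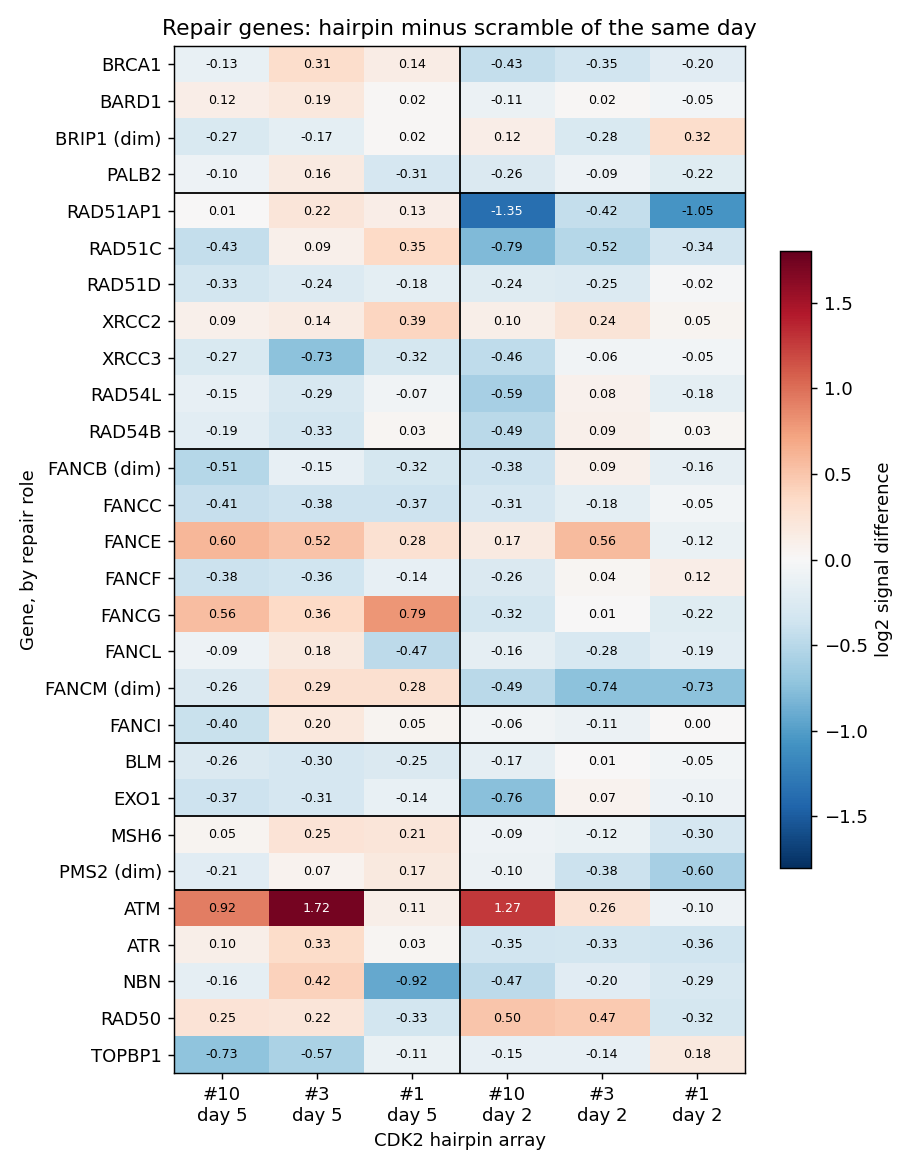
Difference in log2 signal between each of the 6 hairpin arrays and the scramble array of the same day, for the 28 measured genes grouped by repair role (rows) with day 5 left of day 2 (columns); genes marked dim lay below the limit for testing. ATM holds the highest value in #10 at both days and in #3 at day 5, while FANCE holds it in the array labelled #3 at day 2. RAD51AP1 holds the lowest values of a tested gene, in #10 and #1 at day 2.

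In hairpin #10, the repair genes lay mostly below scramble, while ATM and RAD50 lay above both scramble arrays in both #10 arrays. Of the 24 tested members, 18 had a negative fitted difference and 6 a positive one, with a median of -0.26 log2, against 61.3% negative and a median of -0.09 for all tested genes. Both #10 arrays lay below both scramble arrays for 13 members, where 32.9% of all tested genes did so, and above both for 2 members, where 21.2% did. The 13 were PALB2, RAD51C, RAD51D, XRCC3, RAD54L, RAD54B, FANCC, FANCF, FANCL, BLM, EXO1, NBN and TOPBP1. Set against scramble at day 2 alone, leaving out the array labelled scramble at day 5, the count below was 20 (42.4% of all genes) and the count above was 2 (34.6%). With the array labelled scramble at day 5 as the lone control, 16 of 24 differences were negative, with a median of -0.19 log2 against -0.13 for all genes. Without #10 at day 2 the median was -0.12, against -0.07 for all genes. Under every scaling tried, between 17 and 19 of the 24 differences were negative.

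In hairpin #3, 14 members had a negative and 10 a positive difference, with a median of -0.04 log2, against 59.1% negative and a median of -0.07 for all genes. With median centring the split was 12 and 12 and the median 0.01. Both #3 arrays lay below both scramble arrays for RAD51D, XRCC3, FANCC and TOPBP1 (4 members, 18.8% of all genes) and above both for XRCC2, ATM and RAD50 (3 members, 15.8%). Without the array labelled #3 at day 2 the median was 0.06, with 13 members positive, while with scramble at day 2 as the lone control it was -0.10, with 17 negative. With the array labelled scramble at day 5 as the lone control the median was 0.08, with 14 positive.

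In hairpin #1, 16 members were negative and 8 positive, with a median of -0.07 log2, against 53.7% negative and a median of -0.02 for all genes. Quantile normalization gave 13 negative and 11 positive. Both #1 arrays lay below both scramble arrays for 10 members (17.6% of all genes) and above both for XRCC2 and RAD54B (2 members, 11.4%). The 10 were PALB2, RAD51D, XRCC3, RAD54L, FANCC, FANCL, BLM, EXO1, NBN and RAD50. Set against scramble at day 2 alone, the counts were 19 below (38.6%) and 4 above (40.9%). With the array labelled scramble at day 5 as the lone control, 12 differences were negative and 12 positive, with a median of -0.04 log2 against -0.05 for all genes. The comparisons of the hairpins share both scramble arrays, so a gene with a high or low scramble value moves in all of them. FANCC, RAD51D and XRCC3 lay below the scramble array of the day in all 6 hairpin arrays (3 members, 8.31% of all genes). XRCC2 was above the scramble array of the day in all 6 (1 member, 4.61%). For RAD51D and XRCC2 this held on the brightest probe set but not on a second one above the limit.

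**Figure D2:**
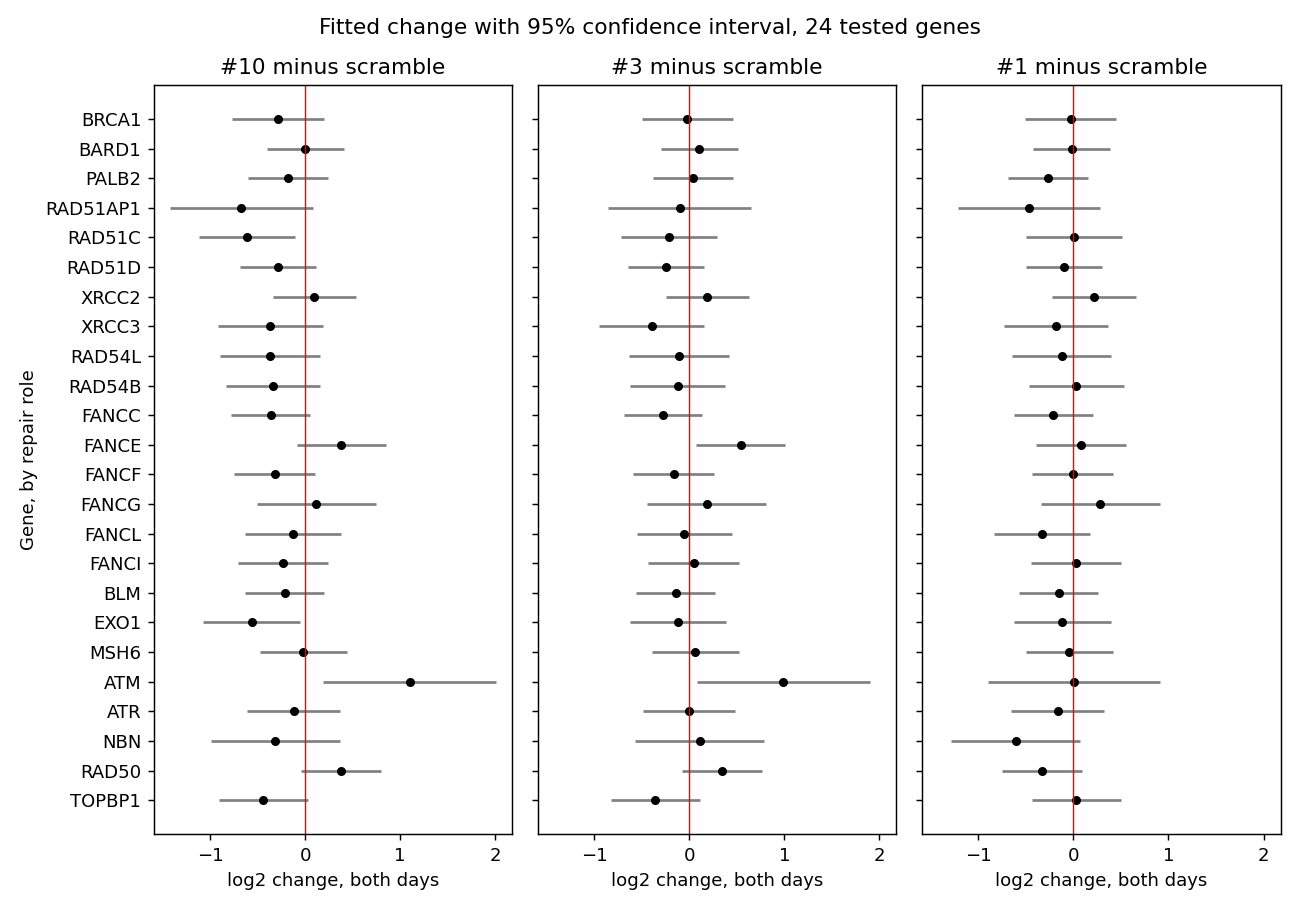
Fitted log2 difference of each hairpin from scramble over both days (points) with its 95% confidence interval (bars), for the 24 tested genes by repair role, with #10 at the left and #1 at the right. Intervals that miss 0 are those of ATM, RAD51C and EXO1 in #10 and of ATM and FANCE in #3, none of which passed after adjustment over all genes.

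The 3 tested genes of the BRCA1 group had a median difference of -0.18 log2 in #10, 0.04 in #3 and -0.03 in #1. Their median knockdown difference was 0.11 at day 5 and -0.19 at day 2. BRCA1, the ubiquitin ligase and scaffold that commits a break to recombination, had 7.75 in #10, 8.19 in #3 and 8.02 in #1 at day 5, against 7.88 in the scramble-labelled array. At day 2 it had 7.97 in #10, 8.06 in the array labelled #3 and 8.21 in #1, against 8.41 in scramble. All 3 hairpins were thus low at day 2 and lay on both sides of scramble at day 5. The mean knockdown difference at day 5 was 0.11 on this probe set and -0.34, -0.20 and -0.43 on the 3 dimmer ones above the limit. The fitted difference in #10 was -0.28 (95% interval -0.77 to 0.20), and 4 BRCA1 probe sets above the limit gave -0.28, -0.49, -0.26 and -0.36.

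BARD1, the obligate RING partner of BRCA1, was the steadiest member of this group, with all 8 arrays between 7.69 and 7.95. Its values at day 5 were 7.80 in #10, 7.88 in #3 and 7.70 in #1, against 7.69 in the scramble-labelled array. At day 2 they were 7.82 in #10, 7.95 in the array labelled #3 and 7.88 in #1, against 7.93 in scramble. The difference in #10 was 0.00 (95% interval -0.40 to 0.41), which leaves room for a change of that size either way. PALB2, the bridge between BRCA1 and BRCA2, stood at 8.06 in #10, 8.32 in #3 and 7.85 in #1 at day 5, against 8.16 in the scramble-labelled array. At day 2 PALB2 stood at 8.01 in #10, 8.17 in the array labelled #3 and 8.04 in #1, against 8.26 in scramble, so #10 and #1 were below scramble at both days. Its difference in #10 was -0.18 (95% interval -0.60 to 0.24).

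The strand-exchange cofactors held the lowest fitted difference of the set at day 2 and in #10, each time that of RAD51AP1. The lowest was that of TOPBP1 for the knockdown at day 5 and that of NBN in #1. RAD51AP1, which promotes the pairing of DNA strands, had 7.93 in #10, 8.14 in #3 and 8.04 in #1 at day 5, against 7.92 in the scramble-labelled array. At day 2 RAD51AP1 had 7.20 in #10, 8.13 in the array labelled #3 and 7.50 in #1, against 8.55 in scramble. On this probe set the day 5 hairpin arrays were all slightly above scramble and the day 2 ones all low. The knockdown difference was 0.12 (SE 0.35, 95% interval -0.70 to 0.94) at day 5 and -0.94 (SE 0.35, 95% interval -1.76 to -0.13) at day 2, with limma adjusted p of 0.942 and 1.00. Its 4 probe sets gave 0.12, -0.08, 0.35 and -0.10 at day 5, of mixed sign, and -0.94, -0.35, -0.90 and -0.82 at day 2, of 1 sign.

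RAD51C, a subunit of the BCDX2 and CX3 complexes, had 9.14 in #10, 9.66 in #3 and 9.92 in #1 at day 5, against 9.57 in the scramble-labelled array. At day 2 RAD51C had 9.34 in #10, 9.62 in the array labelled #3 and 9.79 in #1, against 10.13 in scramble. Hairpin #10 was the lowest array at each day. Its 2 values lay below both scramble values (32.9% of all genes) and below both #1 values (39.1%). The difference of #10 from scramble was -0.61 (SE 0.22, 95% interval -1.12 to -0.10, limma adjusted p = 0.174), and 2 further probe sets gave -0.50 each. Against #1 the difference was also -0.61 (SE 0.22, limma adjusted p = 0.236).

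XRCC3, the partner of RAD51C in the CX3 complex, was at 7.44 in #10, 6.98 in #3 and 7.39 in #1 at day 5, against 7.71 in the scramble-labelled array. At day 2 XRCC3 was at 7.18 in #10, 7.57 in the array labelled #3 and 7.59 in #1, against 7.64 in scramble. Every hairpin array lay below the scramble array of its day, as for 8.31% of all genes. The difference was -0.37 in #10, -0.40 in #3 and -0.18 in #1, each with an interval that includes 0. RAD54L, a motor protein that acts during strand exchange, was at 8.51 in #10, 8.36 in #3 and 8.58 in #1 at day 5, against 8.65 in the scramble-labelled array. At day 2 RAD54L was at 8.23 in #10, 8.90 in the array labelled #3 and 8.64 in #1, against 8.82 in scramble. The array labelled #3 at day 2 was the only hairpin array above scramble, and the difference in #10 was -0.37 (95% interval -0.90 to 0.15).

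The remaining strand-exchange cofactors were RAD51D, XRCC2 and RAD54B. RAD51D, a subunit of the BCDX2 complex, was between 7.01 and 7.34 over the 8 arrays. It differed by -0.29 in #10, -0.25 in #3 and -0.10 in #1. A second RAD51D probe set gave -0.19, -0.28 and 0.06 in the same order, and the dimmest above the limit gave -0.42, -0.28 and -0.08. On the second one, #3 and #1 at day 2 were at 6.87 and 6.86, against 6.82 in scramble. XRCC2, the partner of RAD51D, was between 6.78 and 7.16. It differed by 0.10 in #10, 0.19 in #3 and 0.22 in #1. However, a second XRCC2 probe set gave -0.79, -0.61 and -0.49 in the same order. The direction for XRCC2 therefore depends on the probe set. RAD54B, a relative of RAD54L, was between 5.96 and 6.53 and differed by -0.34 in #10, -0.12 in #3 and 0.03 in #1.

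**Figure D3:**
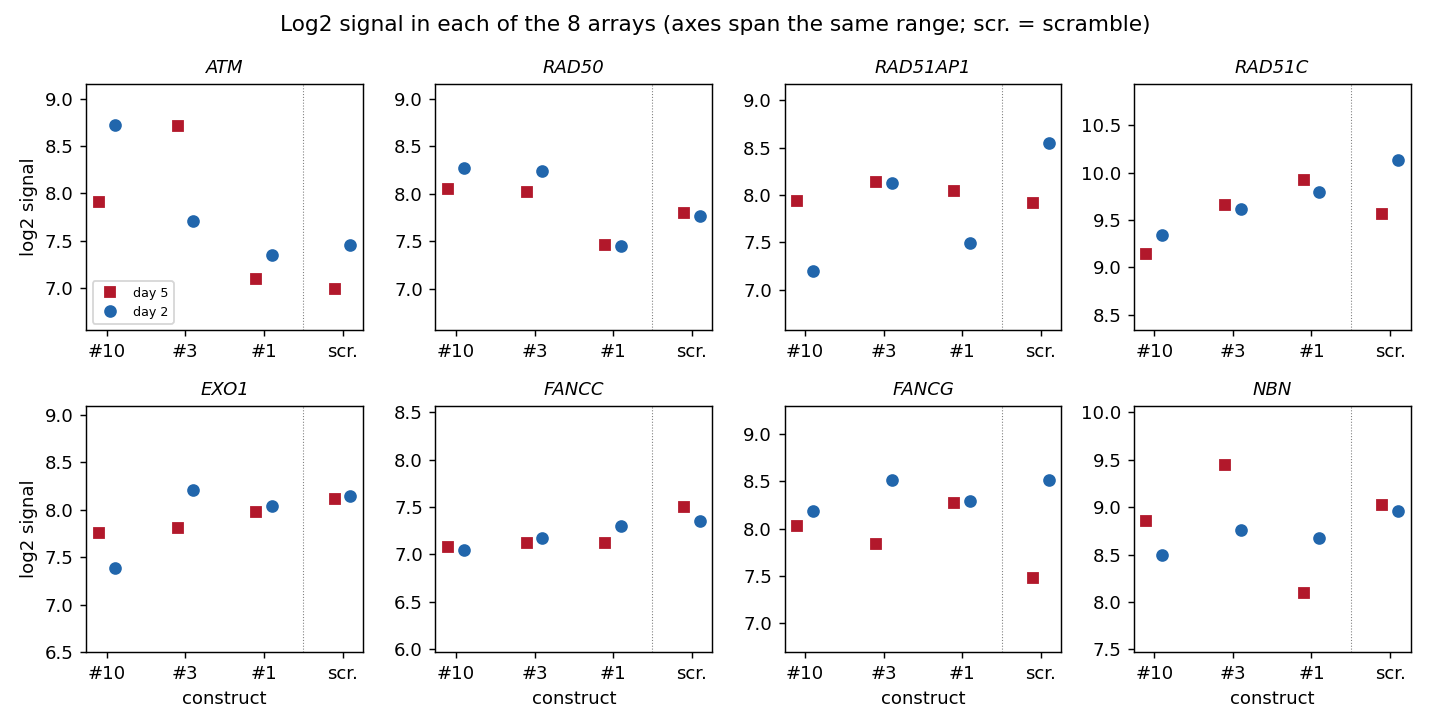
Log2 signal of 8 genes in each array, by construct from #10 to scramble along the x axis, with day 5 as red squares and day 2 as blue circles. ATM is at 7.91 in #10 at day 5 and 8.73 in #10 at day 2, RAD51AP1 is at 7.20 in #10 at day 2 against 8.55 in scramble, and FANCG in the array labelled scramble at day 5 is at 7.47, the lowest FANCG value.

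The Fanconi core genes lay on both sides of scramble. FANCC was low in every hairpin array, at 7.08 in #10, 7.12 in #3 and 7.12 in #1 at day 5, against 7.49 in the scramble-labelled array. At day 2 FANCC was 7.04 in #10, 7.17 in the array labelled #3 and 7.30 in #1, against 7.35 in scramble. Each hairpin value lay below the scramble value of its day, as for 8.31% of all genes. The differences were -0.36 (95% interval -0.78 to 0.05, limma adjusted p = 0.311) in #10, -0.28 in #3 and -0.21 in #1.

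FANCE, which links the core complex to the FANCD2 substrate, was mostly above scramble. At day 5 FANCE was 8.37 in #10, 8.29 in #3 and 8.05 in #1, against 7.77 in the scramble-labelled array. At day 2 FANCE was 8.56 in #10, 8.96 in the array labelled #3 and 8.28 in #1, against 8.39 in scramble. The array labelled scramble was the lowest of day 5, and the array labelled #3 was the highest of day 2. The fitted differences were 0.38 in #10 and 0.54 in #3 (SE 0.20, 95% interval 0.07 to 1.01, limma adjusted p = 0.464). A second FANCE probe set gave -0.06 in #10 and 0.03 in #3, and the dimmest gave 0.28 and 0.48.

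FANCG, a scaffold of the core complex, was 8.03 in #10, 7.83 in #3 and 8.26 in #1 at day 5, against 7.47 in the scramble-labelled array. At day 2 FANCG was 8.19 in #10, 8.52 in the array labelled #3 and 8.29 in #1, against 8.51 in scramble. The scramble arrays themselves differed by -1.04 between day 5 and day 2, the widest such gap among the tested members. The knockdown difference was 0.57 (SE 0.25, 95% interval -0.01 to 1.15) at day 5 and -0.18 (95% interval -0.76 to 0.39) at day 2. It rests on the array labelled scramble at day 5, whose CDK2 signal was low.

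FANCL, the ubiquitin ligase subunit of the core, was 8.16 in #10, 8.43 in #3 and 7.78 in #1 at day 5, against 8.25 in the scramble-labelled array. At day 2 FANCL was 8.24 in #10, 8.12 in the array labelled #3 and 8.21 in #1, against 8.40 in scramble. On this probe set #10 and #1 were below scramble at both days. The differences were -0.13 in #10 and -0.33 in #1, with intervals that include 0. A second FANCL probe set gave -0.47 in #10 and -0.15 in #1, with #1 at day 2 at 6.54 against 6.51 in scramble. FANCF, an adaptor of the core, was between 6.57 and 6.997 and differed by -0.32 in #10, -0.16 in #3 and -0.01 in #1. A second FANCF probe set gave -0.04, 0.335 and -0.16 in the same order. FANCB and FANCM, a core subunit and the translocase that brings the core to DNA, were measured below the limit, at 4.65 to 5.30 and 5.31 to 6.08 log2, and were not tested.

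FANCI, the substrate that the core complex ubiquitinates with FANCD2, was the only member lower in all 3 hairpin arrays of day 5 than in all 3 of day 2 (1 of 24 members, 3.1% of all genes). At day 5 FANCI was 8.89 in #10, 9.49 in #3 and 9.35 in #1, against 9.30 in the scramble-labelled array. At day 2 FANCI was 9.59 in #10, 9.54 in the array labelled #3 and 9.65 in #1, against 9.65 in scramble. The scramble arrays had the same direction, with -0.35, and the shCDK2 difference between day 5 and day 2 was also -0.35 (SE 0.19, 95% interval -0.79 to 0.09, limma adjusted p = 1.00). The third FANCI probe set, at a mean of 7.09, gave -1.04 in #10 against scramble, while the brightest gave -0.23 and the second -0.12.

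Of the resection and dissolution enzymes, EXO1 was low in #10. EXO1, a 5′ to 3′ exonuclease that also acts in mismatch repair, was 7.75 in #10, 7.81 in #3 and 7.98 in #1 at day 5, against 8.12 in the scramble-labelled array. At day 2 EXO1 was 7.38 in #10, 8.21 in the array labelled #3 and 8.04 in #1, against 8.14 in scramble. Both #10 values lay below both scramble values (32.9% of all genes) and below both #1 values (39.1%). The difference of #10 from scramble was -0.56 (SE 0.22, 95% interval -1.07 to -0.06, limma adjusted p = 0.206). EXO1 had 1 probe set. BLM, the helicase that dissolves recombination intermediates, was 9.16 in #10, 9.12 in #3 and 9.17 in #1 at day 5, against 9.42 in the scramble-labelled array. At day 2 BLM was 9.15 in #10, 9.33 in the array labelled #3 and 9.26 in #1, against 9.32 in scramble. The hairpin arrays of day 5 were closely alike, and the difference in #10 was -0.21 (95% interval -0.63 to 0.20).

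MSH6, the mismatch-recognition subunit, was the brightest member and lay between 10.04 and 10.55 log2 in the 8 arrays. At day 5 MSH6 was 10.09 in #10, 10.29 in #3 and 10.25 in #1, against 10.04 in the scramble-labelled array. At day 2 MSH6 was 10.47 in #10, 10.43 in the array labelled #3 and 10.26 in #1, against 10.55 in scramble. On this probe set the hairpin arrays were above scramble at day 5 and below it at day 2, while the second MSH6 probe set had a mean knockdown difference of -0.11 at day 5 and -0.01 at day 2. The differences over both days were -0.02 in #10 (95% interval -0.47 to 0.44) and 0.06 in #3. PMS2, the nuclease subunit that acts after MSH6, was below the limit at 3.44 to 4.14 log2.

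ATM, the kinase activated by double-strand breaks, had the largest difference of any member. At day 5 ATM was 7.91 in #10, 8.71 in #3 and 7.10 in #1, against 6.99 in the scramble-labelled array. At day 2 ATM was 8.73 in #10, 7.71 in the array labelled #3 and 7.35 in #1, against 7.45 in scramble. Both arrays of #10 and of #3 lay above both scramble arrays, and the #1 arrays were near scramble. The difference was 1.10 in #10 (SE 0.39, 95% interval 0.19 to 2.01, limma adjusted p = 0.171), 0.99 in #3 (SE 0.39, 95% interval 0.08 to 1.90, limma adjusted p = 0.487) and 0.01 in #1 (95% interval -0.90 to 0.91).

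The size of the ATM difference depended on the probe set and on the single arrays of a hairpin. A second ATM probe set above the limit gave 0.42 in each hairpin, and the dimmest of the 3 gave 0.20 in #10, 0.80 in #3 and -0.43 in #1. The mean of the ATM probe sets was 0.37 higher in #10 (limma adjusted p = 0.293). Leaving out either the array labelled #3 at day 2 or #3 at day 5, the #10 difference of 1.10 passed (limma adjusted p = 0.0280) and so did that of #10 against #1, while 960 genes were then called for #10 in place of 258. Without the array labelled #3 at day 2, ATM also passed for #3, at 1.74 (limma adjusted p = 0.0393), while without #3 at day 5 its difference in #3 was 0.24 (limma adjusted p = 0.887). The #10 difference was 1.55 without #10 at day 5 and 0.65 without #10 at day 2.

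RAD50, the ATPase of the break-sensing complex, was 8.05 in #10, 8.02 in #3 and 7.46 in #1 at day 5, against 7.80 in the scramble-labelled array. At day 2 RAD50 was 8.28 in #10, 8.24 in the array labelled #3 and 7.45 in #1, against 7.77 in scramble. The #10 and #3 arrays were high and the #1 arrays low at both days. The difference was 0.38 in #10 (95% interval -0.04 to 0.79) and -0.33 in #1 (95% interval -0.75 to 0.09), and #10 against #1 gave 0.71 (SE 0.18, 95% interval 0.29 to 1.12, limma adjusted p = 0.133), the smallest adjusted p of any member. The other RAD50 probe sets gave 0.13 and 0.04 in #10, 0.40 and 0.18 in #3, and -0.24 and -0.13 in #1.

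NBN, the adaptor subunit of that complex, was 8.86 in #10, 9.44 in #3 and 8.10 in #1 at day 5, against 9.02 in the scramble-labelled array. At day 2 NBN was 8.49 in #10, 8.76 in the array labelled #3 and 8.67 in #1, against 8.96 in scramble. The 3 hairpins lay on both sides of scramble at day 5. The difference was -0.61 in #1 (SE 0.29, 95% interval -1.29 to 0.07, limma adjusted p = 1.00), and 4 NBN probe sets gave -0.32, 0.09, 0.06 and -0.59 in #10, of mixed sign.

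TOPBP1, the scaffold that activates ATR, was 9.26 in #10, 9.42 in #3 and 9.88 in #1 at day 5, against 9.99 in the scramble-labelled array. At day 2 TOPBP1 was 9.43 in #10, 9.44 in the array labelled #3 and 9.76 in #1, against 9.58 in scramble. On this probe set the #10 and #3 arrays were the lowest at both days. The difference was -0.44 in #10 (95% interval -0.91 to 0.03, limma adjusted p = 0.274), -0.36 in #3 and 0.03 in #1. A second TOPBP1 probe set gave -0.26 in #10, -0.06 in #3 and -0.14 in #1. There #3 at day 5 was at 9.52, above the scramble-labelled array at 9.40. ATR, the kinase of stalled forks, is shown for its opposite sides at the 2 days: it was 6.94 in #10, 7.16 in #3 and 6.86 in #1 at day 5, against 6.83 in the scramble-labelled array. At day 2 ATR was 7.11 in #10, 7.13 in the array labelled #3 and 7.09 in #1, against 7.46 in scramble. The 6 hairpin arrays lay between 6.86 and 7.16, and the scramble arrays differed by -0.63 between day 5 and day 2.

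**Figure D4:**
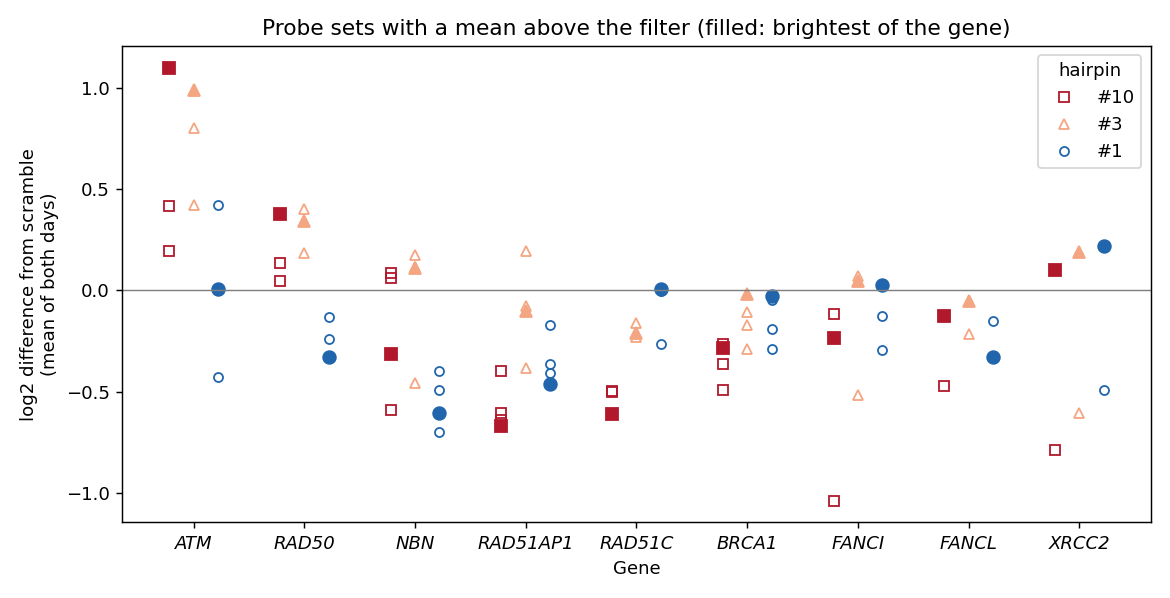
Log2 difference from scramble, as the mean of both days, for every probe set above the limit of 9 members, with the brightest probe set of each gene filled. The RAD51C probe sets lie close together in #10, while those of ATM, FANCI, NBN and XRCC2 are spread.

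Of the 14 members with several probe sets above the limit, 11 had 1 sign in all of them in #10, and FANCE, NBN and XRCC2 were mixed.

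The members were next compared by day. At day 5, 13 of 24 were negative and 11 positive, with a median of -0.07 log2, against 60.8% negative and a median of -0.09 for all tested genes. At day 2, 20 of 24 were negative, with a median of -0.17, against 46.8% negative and a median of 0.02 for all genes. With median centring the day 5 split was 12 and 12. Quantile normalization gave 15 negative at day 5 (median -0.12) and 17 at day 2 (median -0.14), and the median of the difference between days was -0.02 in place of 0.08. Without #10 at day 2 the day 2 median was -0.05, with 17 negative. At day 5 all 3 hairpins lay below scramble for 8 members (30.0% of all genes) and above for 8 (16.0%). The 8 below were RAD51D, XRCC3, RAD54L, FANCC, FANCF, BLM, EXO1 and TOPBP1, and the 8 above were BARD1, RAD51AP1, XRCC2, FANCE, FANCG, MSH6, ATM and ATR.

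At day 2 all 3 hairpins lay below scramble for 11 members (26.5% of all genes) and above for XRCC2 alone (1 member, 25.6%). The 11 were BRCA1, PALB2, RAD51AP1, RAD51C, RAD51D, XRCC3, FANCC, FANCL, MSH6, ATR and NBN. Leaving out the array labelled #3 at day 2, the count below was 16 (34.7% of all genes) and that above was 1 (32.8%). Each day has 1 scramble array, so a single high or low control moves every member of that day. Scramble itself was lower at day 5 than at day 2 for some members, by a difference of -1.04 log2 for FANCG, -0.63 for RAD51AP1, -0.63 for ATR, -0.62 for FANCE, -0.57 for RAD51C, -0.52 for BRCA1 and -0.51 for MSH6. For others scramble was higher at day 5, by 0.41 for TOPBP1, 0.16 for FANCF, 0.14 for FANCC and 0.10 for BLM. The same held for XRCC3 (0.08), RAD51D (0.06), NBN (0.06) and RAD50 (0.03). RAD51AP1, MSH6 and ATR lay above scramble in all 3 hairpins at day 5 and below it in all 3 at day 2 (3 members, 3.2% of all genes), and no member lay the other way (0 members, 7.75%). In the shCDK2 arrays day 5 minus day 2 was negative for 21 of 24 members, with a median of -0.08 log2, against 56.8% negative and a median of -0.03 for all genes. Without the array labelled #3 at day 2 it was negative for 16.

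The members were set beside the other repair lists and the S phase genes in #10, where most genes were called. Of 36 tested further homologous recombination and Fanconi genes out of 42 named, 21 were negative, with a median of -0.11 log2 and 0 called. Checkpoint genes had a median of -0.41 with 14 of 16 negative, base excision genes -0.33 with 14 of 18, nucleotide excision genes -0.17 with 10 of 16, and end joining genes -0.11 with 8 of 11. The 3 tested further mismatch repair genes had a median of 0.27 with 1 negative. S phase genes had the lowest median, -0.46, with 34 of 38 negative. These lists were not compared with the members by a test.

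In these lists 2 genes passed in #10, 1 of 16 checkpoint genes and 1 of 38 S phase genes (2.01% of all genes). H2AX, the histone phosphorylated at breaks, fell to 11.63 in #10 at day 5, against 12.63 in the array labelled scramble, and to 11.43 in #10 at day 2, against 12.41 in scramble. The H2AX difference was -0.99 (SE 0.17, limma adjusted p = 0.0430). CDC45, a subunit of the replicative helicase, had a difference of -0.92 (SE 0.17, limma adjusted p = 0.0470) and was 7.95 in #10 at day 5, against 8.82 in the array labelled scramble. Both calls were lost with median centring, at adjusted p of 0.0607 for H2AX and 0.0721 for CDC45, and CDC45 also with the 60th percentile filter (0.0539) and an intensity trend (0.0517). Both were also lost without #10 at day 5 or day 2, #1 at day 5 or day 2, or either scramble array, where the limma adjusted p lay between 0.0642 and 0.251 for H2AX and between 0.0802 and 0.280 for CDC45. In no other comparison was a gene of these lists called by limma. Of the recombination genes outside the members, CENPX differed by -0.69, SFR1 by 0.63, ABRAXAS1 by 0.59 and SWSAP1 by -0.56 in #10, none of which passed.

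**Figure D5:**
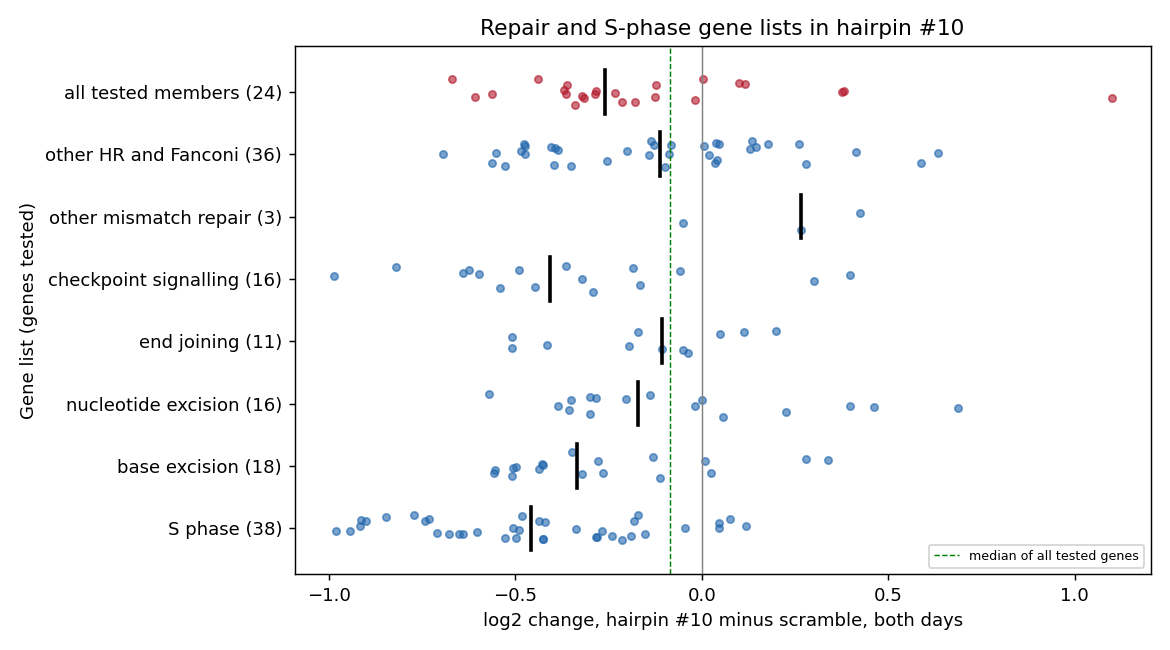
Fitted log2 difference of each gene in #10 from scramble over both days, by repair list, with a black bar at each list's median and a green dashed line at the median of all tested genes. The members' median is -0.26, between that of the further recombination genes at -0.11 and that of the S phase genes at -0.46.

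Marker lists of the cell cycle and of maturation differed between the hairpins as well. The mean level of the S phase list was 9.45 in #10, 9.66 in #3 and 9.92 in #1 at day 5, against 9.87 in the array labelled scramble, and 9.50, 9.69 and 9.88 in the same order at day 2, against 10.00 in scramble. Mature granulocyte markers, 7 of 7 measured, averaged 8.33 in #10, 8.28 in #3 and 7.27 in #1 at day 5, against 7.35 in the array labelled scramble, and 8.54, 6.99 and 7.14 at day 2, against 6.79 in scramble. Monocyte and macrophage markers, 6 of 6 measured, averaged 9.44 in #10, 7.79 in #3 and 6.35 in #1 at day 5, against 6.33 in the array labelled scramble, and 6.77, 6.21 and 6.32 at day 2, against 5.97 in scramble. Of these, MMP9, CAMP, CD68 and CD86 passed in #10, all higher. They were 2 of 5 tested granulocyte and 2 of 6 tested monocyte genes, against 2.01% of all genes. LTF and FCGR3B, counted in the granulocyte mean, lay below the limit for testing. In #10 LTF was 4.97 at day 5 and 4.79 at day 2, against 5.24 and 4.93 in the arrays labelled scramble. FCGR3B was 3.86 and 3.82 in #10, against 3.68 and 4.15. Of the other marker lists, the T cell gene CD3D (2.25 log2, limma adjusted p = 0.0133) and the smooth muscle actin gene ACTA2 (1.08 log2, limma adjusted p = 0.0428) were called higher in #10, while the list medians were -0.05 for the 3 tested lymphoid genes and 0.01 for the 5 fibroblast and epithelial ones. The 6 tested promyelocyte genes had a median of -0.52 in #10, with 5 negative and 0 called by limma (1 at an unadjusted p under 0.05), and the 2 erythroid genes a median of -0.20. In bulk RNA, fewer cells in S phase and less of a transcript per cell cannot be told apart, and the part of these markers in the members' differences was not tested.

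Between the hairpins, the comparison of #10 with #1 shares no scramble array. Of the 24 members 15 were negative and 9 positive, with a median of -0.16 log2, against 59.0% negative and a median of -0.08 for all genes. Without #10 at day 2 the split was 12 and 12, with a median of -0.0018 against -0.06 for all genes. Both #10 arrays lay below both #1 arrays for 11 members (39.1% of all genes), namely BRCA1, RAD51C, RAD51D, RAD54L, RAD54B, FANCC, FANCF, FANCG, BLM, EXO1 and TOPBP1. They lay above both for FANCE, ATM and RAD50 (3 members, 24.5%). The members with an unadjusted p under 0.05 were RAD50 at 0.71, ATM at 1.09, RAD51C at -0.61 and TOPBP1 at -0.47, and none passed adjustment.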

How the data were processed

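Expression was measured on 8 Affymetrix arrays, 1 per construct and day. The authors deposited log2 values for 49395 probe sets, processed with Partek per the submitters' processing notes. No Partek version or normalization method is stated in the sources used here, and the log2 scale was inferred from the values' range. Values were used as deposited. The array annotation gave exactly 1 gene to 44994 probe sets, several to 1832 and none to 2569, and 44967 matched a RefSeq gene by Entrez ID. A gene was its brightest probe set by the mean over the 8 arrays, and it was tested if that mean exceeded 5.83 log2 (the 40th percentile over probe sets).

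Linear models were fitted with limma 3.58.1 under R 4.3.3, after reading the values with the data.table package, version 1.17.8. Tests were two-sided and adjusted by the Benjamini-Hochberg method over 12845 genes with a threshold of 0.05. Knockdown at a day, the difference between days and day 5 against day 2 came from a fit of group means with 4 residual and 3.13 prior degrees of freedom. There the hairpins were the repeats, and scramble, with a lone array a day, was taken to vary as much. Hairpin comparisons came from construct and day terms with 3 residual and 4.54 prior degrees of freedom. The fits were also run on simulated data, with independent noise between arrays and planted shifts shared by all arrays of a group. That run held no disagreement between hairpins and no doubted labels, so it does not check for these. The members and lists were chosen with earlier results of these data known. All members could be named. Values per array are given for called members and for up to 4 members of each role with the largest mean difference from scramble; ATR was added after its values were seen. Of other lists, up to 4 genes with the largest change in #10 could be named. E2F and cell-cycle homology words were searched in the 250 bases before RefSeq start sites; FANCI, NBN and RAD54B had no entry. Alternatives were quantile normalization, median centring, no filter, a 60th percentile filter (6.91 log2), the mean of probe sets, an intensity trend in the prior, a replicate block, and each array left out. Counts without the array labelled scramble at day 5 or #3 at day 2 were added after seeing the data.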

Additional observations from a re-analysis of the deposited data

Results flagged for a closer look

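In 3 members all 3 hairpins lay above scramble at day 5 and below it at day 2, where 3.2% of all tested genes did so, each on its brightest probe set. The knockdown difference at day 5 minus that at day 2 was 1.06 log2 for RAD51AP1 (95% interval -0.09 to 2.22), 0.50 for ATR (95% interval -0.17 to 1.18) and 0.34 for MSH6 (95% interval -0.33 to 1.01). None passed the limma test of this difference (adjusted p = 1.00 for each). The second MSH6 probe set had a mean knockdown difference of -0.11 at day 5 and -0.01 at day 2, and 2 of the 4 RAD51AP1 probe sets were negative at day 5 (-0.08 and -0.10), so for these genes the pattern depends on the probe set; ATR had 1. The scramble arrays themselves differed between day 5 and day 2 by -0.63 for RAD51AP1, -0.63 for ATR and -0.51 for MSH6, and the array labelled scramble at day 5 had 53.2% of the CDK2 signal of scramble at day 2. The part of that array in these differences was not tested.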

How the results depend on the processing

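No member was called under quantile normalization, median centring, no filter, the 60th percentile filter, the mean of probe sets or the intensity trend, with a lowest adjusted p of 0.110 (limma) among them. Leaving out single arrays, the count of called members ran from 0 to 1 for #10 against scramble, #3 against scramble and #10 against #1; the gene was ATM each time. It was called for #10 and for #10 against #1 without #3 at day 5 or without the array labelled #3 at day 2, and for #3 without the array labelled #3 at day 2 (1.74 log2, limma adjusted p = 0.0393; 0.24 and 0.887 without #3 at day 5). The cause was not tested. The members' median ran, with single arrays left out, from -0.26 to -0.12 in #10, -0.10 to 0.08 in #3, -0.11 to -0.04 in #1 and -0.16 to -0.0018 in #10 against #1 (the last without #10 at day 2). It ran from -0.10 to 0.04 for the knockdown at day 5, -0.19 to -0.054 at day 2, 0.02 to 0.16 for their difference and -0.13 to -0.055 for day 5 against day 2. Quantile normalization moved the median to -0.12 for day 5 against day 2 and to -0.20 for #10 against #1, where median centring gave -0.12. Of the uncalled member differences, 21 of 192 changed sign under quantile normalization, 10 of 192 under median centring and 24 of 184 with the mean of probe sets. All genes called for #10 numbered 363 with quantile normalization, 82 with median centring, 131 with the 60th percentile filter and 0 without either scramble array.

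With the replicate block, which uses the hairpin number across days, 0 members were called in the 4 comparisons it applies to (lowest limma adjusted p = 0.536), and the medians were -0.07 for the knockdown at day 5, -0.17 at day 2, 0.08 for their difference and -0.08 for day 5 against day 2. The numbers were not treated as pairing the arrays: deviations of day 5 and day 2 correlated at 0.43 for #10, -0.23 for #3 and 0.72 for #1, and only #1 correlated best with its own number. With 1 scramble array a day and no measure of background, dim genes and small differences limit what these arrays can show.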
